A study of Mus musculus with 9 samples.

Results

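Cadherins are membrane proteins that hold cells together through calcium-dependent contacts between like molecules on neighbouring cells. Here 31 genes of the family were followed in the developing mouse olfactory bulb, the first relay of smell in the forebrain. They were the genes of the array whose only symbol was Cdh followed by a number, or began with Pcdh, with a probe set whose log2 level reached 5 on 2 or more of the 9 arrays. Of 56 such symbols on the array 31 met this level and 25 did not, and 10864 genes of the whole series met it. Where a gene had several probe sets, the one with the highest mean was used. All animals were CD1 mice with no genetic change or treatment named in the labels. There was 1 animal and 1 array for each embryonic day (E) between E11 and E18 and 1 for the day of birth (P0), so that no age had a replicate. RNA was amplified in 2 rounds before labelling, per the labels, and levels are the log2 values made by the authors.

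Classical cadherins of type I and type II bind the actin skeleton through catenins and sort cells into layers and nuclei. Clustered protocadherins lie in tandem arrays of alternative genes, and each neuron uses a few of them, which gives its surface an identity by which its own branches are told from those of other cells. The delta protocadherins, of which delta-1 and delta-2 are the subgroups, are encoded by separate genes and are known for axon growth, cell sorting and motility. In the bulb, members of all these classes are known from mitral and tufted cells, the output neurons, and from granule and periglomerular interneurons.

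The members comprised 10 classical cadherins (2 of type I and 8 of type II), 10 clustered protocadherins (9 Pcdhb genes and Pcdhgc4), 8 delta protocadherins (3 delta-1 and 5 delta-2) and 3 others (Cdh13, Pcdh15 and Pcdh20). Readings of 23 members lay at 5 or more on all 9 arrays. The other 8 read under 5 on at least 1 array, and a gene that met the level only at some ages had to differ between ages. The members closest above the limit were Pcdh15, which reached 5 on 2 arrays (5.34 at E17 and 5.44 at P0), and Pcdhb19, which did so on 3. The closest below it were Cdh1 (5.83 at P0), Pcdhb12 (5.31 at E15) and Pcdhb15 (5.85 at E15), each on 1 array. Levels of different genes come from different probe sets and are not ranked against each other. In whole bulb, fewer cells of a type and less RNA per cell cannot be told apart.

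Markers of several cell types changed along the course. Of the genes of mitral and tufted cells 4 of 7 rose and 1 fell, and 7 of 8 interneuron genes rose. Over all genes tested, 25.2% rose and 21.9% fell. All 7 progenitor markers fell. The median of 5 red cell genes was 13.19 at E11 and 3.02 at P0, and that of 8 genes of meninges and mesenchyme was 6.82 at E11 and 9.99 at P0, so the make-up of the tissue differed along the course. Of 6 markers of olfactory sensory neurons, Omp, Cnga2, Cnga4 and Gng8 stayed under the limit. The other 2 met it: Adcy3 rose, with 5.26 at E11 and 7.70 at P0, and Ric8b, with 8.45 and 8.39, did not pass. Xist, which silences an X chromosome in female cells, read 13.42 or more at E11, E12, E15 and P0 and at most 2.76 on the other 5 arrays, so female and male animals alternate unevenly along the course. The median of all probe sets lay between 4.08 and 4.23.

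Most members of the family read higher late than early. Of the 31, 20 rose with age, 2 fell and 9 did not pass at an adjusted p of 0.05 (limma, linear trend over age in days, Benjamini-Hochberg over all 10864 genes). Over all genes tested, 25.2% rose and 21.9% fell, 47.2% in either direction. Of the members that rose, Cdh9, Cdh13, Cdh19, Pcdh15 and Pcdh20 met the level of 5 only through later ages. Their rise follows in part from how members were chosen. With readings under 5 set to 5, 18 members rose and 2 fell, beside 2650 and 2335 of the 10864 genes. The median slope of the members was 0.216 log2 units per day, against 0.002 over all genes, and 26 of 31 slopes were positive. Much of this came early: 27 members read higher at E13 than at E12, against 57.5% of all genes, and the median step was 1.03 log2 units. This step was not tested. It lies between 1 female (E12) and 1 male (E13) animal by Xist, so age and sex cannot be told apart in it. Between E13 and P0 alone, 8 members rose and 2 fell, against 14.0% and 11.2% of all genes. Without the E11 array 12 rose, against 20.4% of all genes, and without E12 15 did, against 21.1%. Without E15, 21 rose and 2 fell, against 25% and 20.9% of all genes. E15 lies at the mean of the fitted days, so leaving it out changes the scatter but cannot change a slope. With embryo sex in the fit, 18 rose and 2 fell, against 23.3% and 19.8%.

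**Figure D1:**
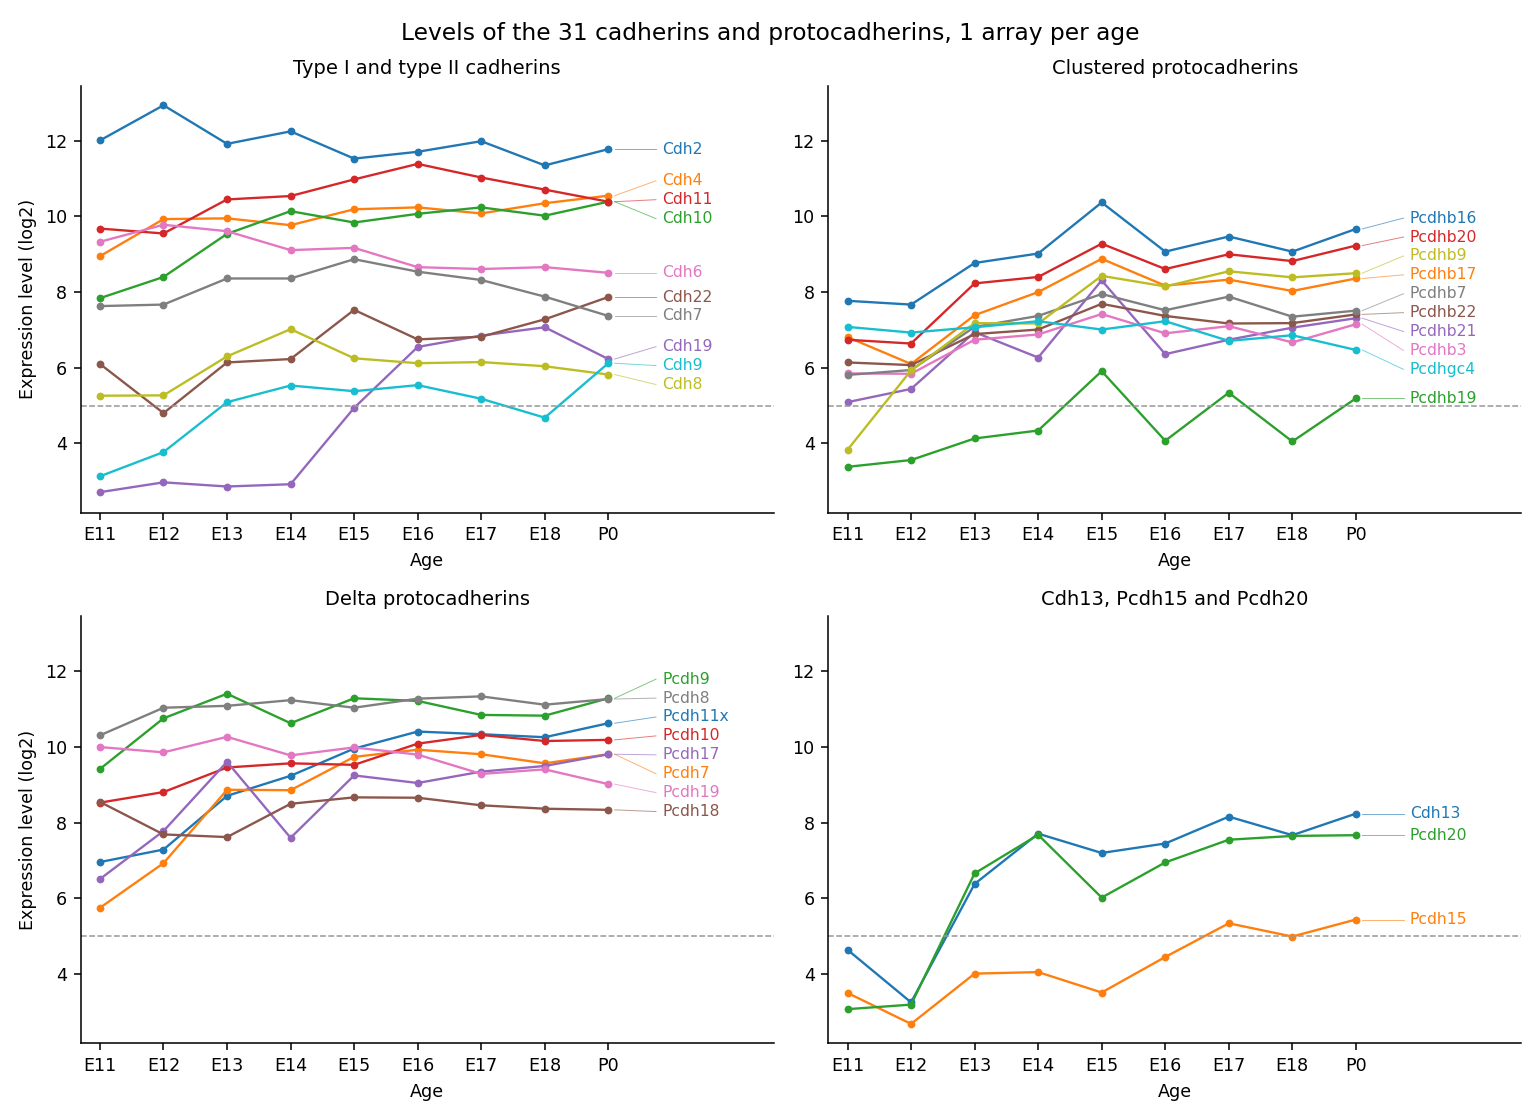
Log2 expression level (vertical axis) of each of the 31 members on the 1 array at each age (horizontal axis), by class; the dashed line marks the level of 5 used to choose members. Lines climb mostly between E11 and E15 and then flatten, Cdh6 and Pcdh19 slope down, and the Pcdhb genes share a high point at E15.

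By class, 5 of 10 classical members rose and 1 fell, 7 of 10 clustered members rose and 0 fell, and 5 of 8 delta members rose and 1 fell. Median slopes were 0.139, 0.217 and 0.168 log2 units per day. These classes were described by counts and medians, and the differences between them were not tested. All 3 of the other members rose. Each of these read under 5 at E11 and E12 and met the level only through later ages, so a rise follows in part from how members were chosen. The same holds for Cdh9 and Cdh19 among the classical members. With readings under 5 set to 5, Pcdh15 did not pass (slope 0.040, limma adjusted p = 0.176). Over all genes tested, 25.2% rose and 21.9% fell.

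**Figure D2:**
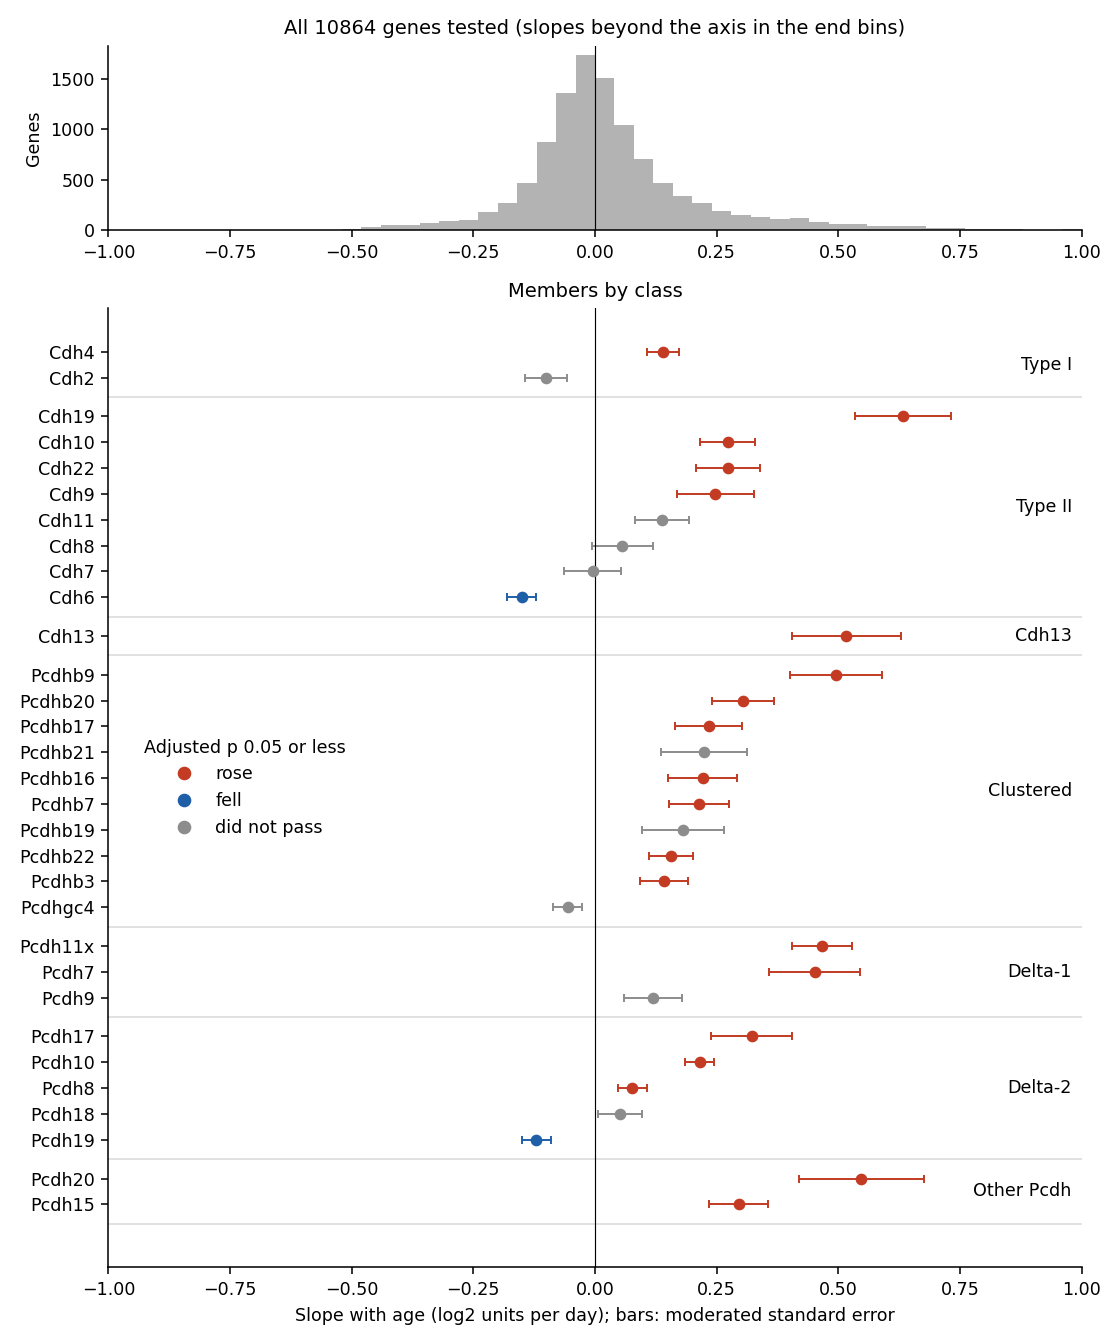
Lower panel: slope with age of each member in log2 units per day (horizontal axis) with its moderated standard error, by class, red where it rose, blue where it fell and grey where it did not pass. Upper panel: number of genes at each slope among all 10864 tested, centred near 0; most members lie to the right of that centre, from -0.151 for Cdh6 to 0.634 for Cdh19.

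The only members whose levels fell were Cdh6 and Pcdh19, and Cdh10 and Pcdh7 are members that rose and then levelled off on the probe sets used. The upstream sequences of these 4 genes are shown so that the promoters of genes with opposite courses can be read side by side. Of the 31 members 15 had an entry in the RefSeq promoter table used (GRCm38.p6). The 250 bases before each start are printed 5′ to 3′ on the gene's own strand, with capitals marking the GC box searched for, GGGCGG or its reverse complement CCGCCC, overlaps included.
Cdh6 (chr15:13173676-13173925, minus strand, fell): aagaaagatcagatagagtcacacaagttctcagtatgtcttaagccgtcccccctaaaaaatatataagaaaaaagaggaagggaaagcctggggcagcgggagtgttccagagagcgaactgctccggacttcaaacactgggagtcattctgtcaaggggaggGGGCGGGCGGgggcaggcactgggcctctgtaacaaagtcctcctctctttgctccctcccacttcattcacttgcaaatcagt
Pcdh19 (chrX:133688994-133689243, minus strand, fell): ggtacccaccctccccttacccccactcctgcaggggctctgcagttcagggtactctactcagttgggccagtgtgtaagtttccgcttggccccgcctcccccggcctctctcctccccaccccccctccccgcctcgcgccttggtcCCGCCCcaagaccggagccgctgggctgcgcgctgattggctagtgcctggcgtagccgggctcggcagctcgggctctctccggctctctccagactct
Cdh10 (chr15:18820079-18820328, plus strand, rose): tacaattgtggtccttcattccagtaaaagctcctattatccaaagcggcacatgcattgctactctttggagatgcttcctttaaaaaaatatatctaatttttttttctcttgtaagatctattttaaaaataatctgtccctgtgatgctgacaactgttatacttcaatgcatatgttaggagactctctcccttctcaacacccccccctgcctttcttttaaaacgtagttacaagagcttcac
Pcdh7 (chr5:57717831-57718080, plus strand, rose): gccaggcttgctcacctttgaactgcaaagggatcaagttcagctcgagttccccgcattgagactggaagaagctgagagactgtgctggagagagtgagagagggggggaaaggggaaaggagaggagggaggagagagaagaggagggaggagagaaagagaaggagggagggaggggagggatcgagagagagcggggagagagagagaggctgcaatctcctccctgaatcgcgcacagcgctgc
The Cdh6 window held 2 overlapping GC boxes and the Pcdh19 window 1, while those of Cdh10 and Pcdh7 held 0. Of 32851 promoter windows of the same length, 32.7% held such a box. The Pcdh19 window was 69.2% G and C with 16 CpG, and the Cdh10 window 36.8% with 2 CpG. Cdh6 (51.2%, 6 CpG) and Pcdh7 (58.4%, 7 CpG) lay nearer the medians over all windows, 52.4% and 6 CpG. The windows of the other members with an entry were searched only as part of the 32851 and are not given singly. Cdh10 and Pcdh7 were picked from among the members that rose. These 4 windows therefore cannot show whether a box goes with the direction of a course. A match describes the letters of the window and is no evidence of a factor bound there.

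Among the type I cadherins, Cdh4, R-cadherin, which is known from retina and brain neurons, rose. It read 8.95, 9.93, 9.95, 9.77, 10.19, 10.24, 10.08, 10.35 and 10.55 from E11 to P0, highest at P0 and lowest at E11. The slope was 0.139 ± 0.032 per day on the log2 scale (SE over 9 arrays, limma adjusted p = 0.00543), and P0 was 3.02-fold above E11. Cdh2, N-cadherin, the junction cadherin of the neural tube and of neurons, read 12.01, 12.94, 11.92, 12.25, 11.53, 11.71, 11.99, 11.35 and 11.78. Its highest reading was at E12 and its lowest at E18, and the slope of -0.10 ± 0.043 did not pass (limma adjusted p = 0.0782). On a second Cdh2 probe set the readings were 10.85 (E11), 11.14 (E12) and 9.70 (P0), with a slope of -0.18 ± 0.036. With the mean of both probe sets Cdh2 fell (slope -0.14, adjusted p = 0.0103).

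Cdh1, Cdh3 and Cdh15, the type I cadherins of epithelia, placenta and other epithelia, and muscle, did not meet the level. Cdh3 read at most 2.88 and Cdh15 at most 2.27. Cdh1 had a single probe set, with readings of 2.54 at E12, 4.58 at E17 and 5.83 at P0. Of 6 epithelial markers only Epcam met the level, with 6.60 at E11 and 3.95 at P0, while Krt8 and Krt14 read at most 2.15 and 2.25.

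The type II cadherins, which often mark particular neuron groups, went different ways, with 4 of 8 rising, 1 falling and 3 not passing. Over all genes tested, 25.2% rose and 21.9% fell. Cdh19, known from Schwann cell precursors and related glia, rose late. It read 2.71, 2.97, 2.86, 2.92, 4.94, 6.55, 6.85, 7.07 and 6.23, so that the 4 arrays to E14 lay under 3 and the 4 from E16 on above 6. The slope was 0.634 ± 0.098 (limma adjusted p = 0.000609), and P0 was at least 2.35-fold above E11. With readings under 5 set to 5 the slope was 0.274 (adjusted p = 0.00483), below those of Pcdh11x, Pcdh7, Pcdhb9 and Cdh13, among others. The median of 6 ensheathing cell markers, from the glia of the olfactory nerve, was 4.19 at E11, 5.97 at E14, 7.85 at E15 and 8.39 at P0. Of these ensheathing cell markers 5 of 6 rose, against 25.2% of all genes, and Foxd3, which did not meet the level, read at most 4.17. The part of these cells in the Cdh19 course was not tested.

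**Figure D3:**
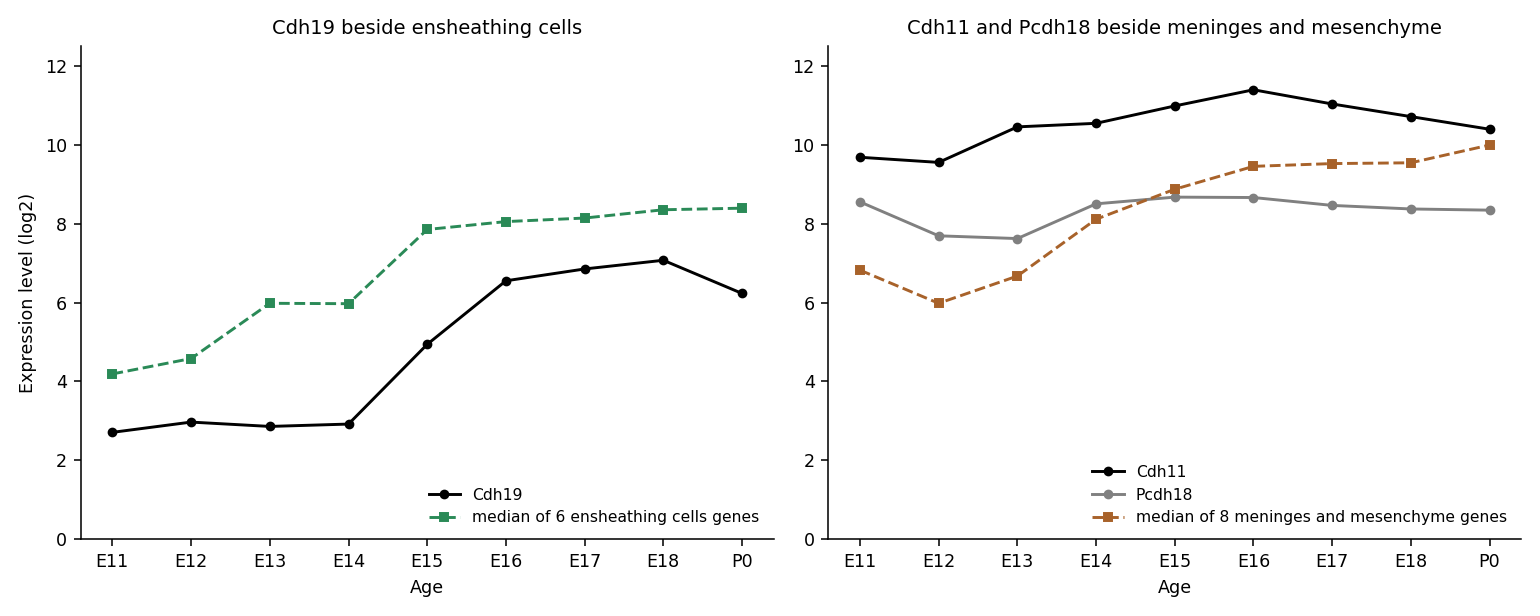
Log2 level (vertical axis) by age (horizontal axis, 1 array each) of Cdh19 beside the median of 6 ensheathing cell markers (left), and of Cdh11 and Pcdh18 beside the median of 8 markers of meninges and mesenchyme (right). Cdh19 steps up between E14 and E16 while its markers read higher from E13 on; Cdh11 turns down after E16; the mesenchyme median reads 9.45 at E16 and 9.99 at P0, with 4 of its 8 markers lower and 3 higher at P0 than at E16.

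Cdh10, a type II cadherin of brain neurons, rose early and then levelled off on the probe set used. It read 7.84, 8.40, 9.54, 10.14, 9.84, 10.07, 10.24, 10.02 and 10.39, with no overlap between the first 3 arrays and the rest. P0 was 5.87-fold above E11 (slope 0.273 ± 0.056, limma adjusted p = 0.00302), and from E13 on the trend did not pass (adjusted p = 0.0762). Cdh22, a type II cadherin known from brain and the pituitary, read 6.10, 4.80, 6.14, 6.23, 7.53, 6.75, 6.82, 7.28 and 7.87. It was lowest at E12 and highest at P0, with a second high at E15 (slope 0.273 ± 0.065, limma adjusted p = 0.00641, 3.41-fold). Cdh9, a cadherin of synapse-specific contacts in other brain regions, read 3.13, 3.77, 5.09, 5.53, 5.38, 5.54, 5.18, 4.68 and 6.12. Its slope of 0.248 ± 0.080 passed (limma adjusted p = 0.0264), but without E11 (adjusted p = 0.159), E12 (0.0757) or P0 (0.0946), with readings under 5 set to 5 (0.127), between E13 and P0 (0.729) or by exact rank correlation (0.14), it did not.

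Cdh6, which marks subdivisions of the early forebrain and renal epithelium, fell. It read 9.33, 9.78, 9.61, 9.11, 9.17, 8.66, 8.61, 8.66 and 8.51, so that every array to E15 lay above every array from E16 on. The slope was -0.15 ± 0.029 (limma adjusted p = 0.00199) and E11 was 1.75-fold above P0. Progenitor markers, 7 of 7 of which fell, had a median of 12.80 (E11) and 10.56 (P0), and their part in the Cdh6 course was not tested.

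Cdh11 and Cdh7 had courses that went up and came down. A peak or dip was called where the squared-age term of a second fit passed and the turning point of the curve lay at least 1 day inside the course. Of the members 6 had a called peak (Cdh7, Cdh10, Cdh11, Pcdh7, Pcdhb7 and Pcdhb9) and 0 a dip, against 4.96% and 1.26% of all genes. A called peak is a bend of the fitted curve and can be a rise that levels off. Cdh10 was highest at P0 (10.39). Pcdh7 read 9.93 at E16 and 9.81 at P0, and Pcdhb9 8.55 at E17 and 8.50 at P0. With embryo sex in the fit 2 had a peak, without E15 3, and between E13 and P0 0. Without a filter, 3 of all 56 symbols had one. Peaks over all genes were not counted under these settings, so the lower counts are not read as a result about the members. Cdh11, the cadherin of mesenchyme that is also made by neurons, read 9.68, 9.55, 10.45, 10.54, 10.98, 11.39, 11.03, 10.71 and 10.39. The turning point lay at day 16.1, 1.12 log2 units above the mean of the fitted ends (limma adjusted p = 0.0229). Its linear trend did not pass (adjusted p = 0.0621), and did without P0 (slope 0.213, adjusted p = 0.0116), after quantile normalization (0.0432) and with the mean of its probe sets (0.0255). Cdh11 read 1.0 log2 units lower at P0 than at E16. Of the 8 markers of meninges and mesenchyme 4 (Col3a1, Lum, Col1a2 and Dcn) also read lower at P0 than at E16, Col1a1 read 7.31 at both ages, and 3 (Ogn, Slc6a13 and Foxc1) read higher. The part of mesenchyme in its course was not tested.

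Cdh7, a type II cadherin of migrating neural crest and of subsets of neurons, read 7.63, 7.67, 8.36, 8.36, 8.87, 8.54, 8.32, 7.88 and 7.37. The turning point lay at day 15.0, with a size of 1.21 log2 units (limma adjusted p = 0.00929), and the slope was near 0 (-0.0050, adjusted p = 0.953). Other probe sets of the gene told another course. The second read 8.13, 7.67, 9.65, 7.77, 7.57, 7.07, 6.63, 6.41 and 5.32, and the third 6.45, 6.15, 8.65, 5.75, 5.83, 4.66, 5.32, 4.16 and 4.31. Both were highest at E13, and their slopes were -0.36 ± 0.086 and -0.37 ± 0.11. With the mean of the 3 probe sets Cdh7 fell (slope -0.25, adjusted p = 0.0168), so its course depends on the probe set read. Cdh7, Cdh19 and Cdh20 lie on chromosome 1 in the RefSeq gene table, and Cdh20 read at most 4.51.

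**Figure D4:**
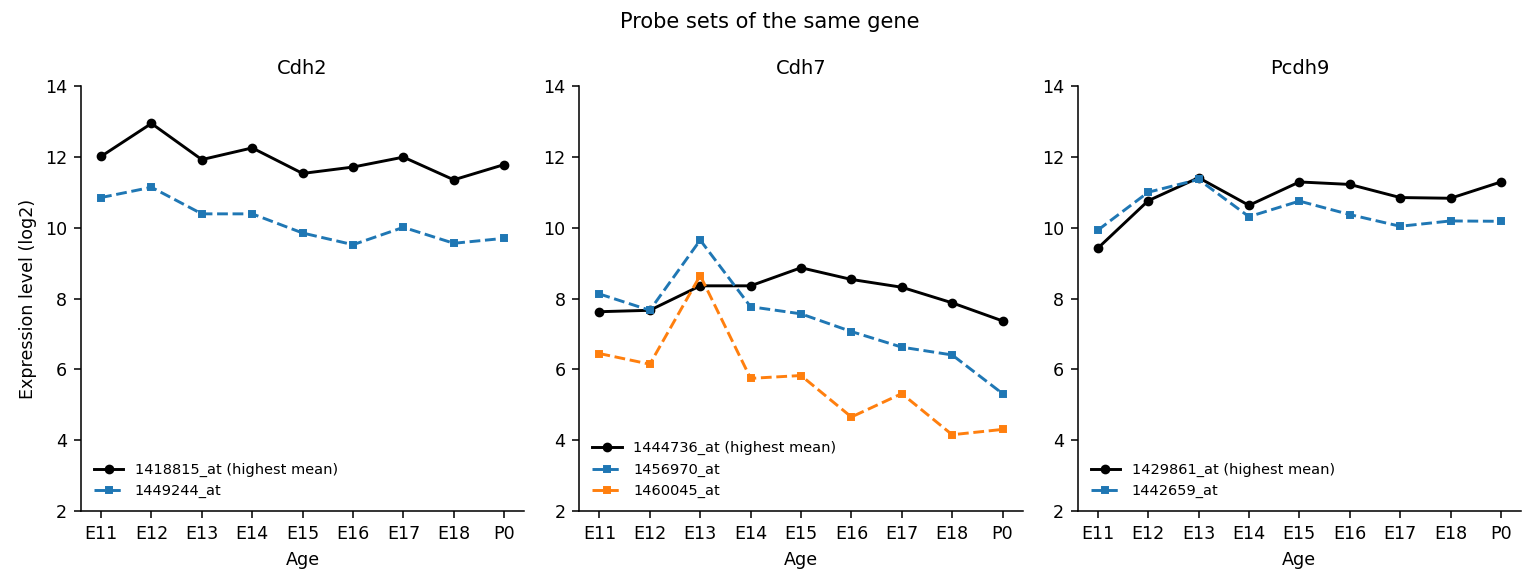
Log2 level (vertical axis) by age (horizontal axis) of every probe set at or above the level of 5 on at least 2 arrays for Cdh2, Cdh7 and Pcdh9; the black line is the probe set used. For Cdh7 the black line peaks at E15 with 8.87 while the other probe sets drop after E13, and for Cdh2 and Pcdh9 the second probe set has the lower slope.

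Cdh8, a type II cadherin of cortical and striatal neurons, read 5.26, 5.27, 6.30, 7.02, 6.25, 6.12, 6.15, 6.04 and 5.82. It was highest at E14 and neither its slope (0.056 ± 0.063, limma adjusted p = 0.492) nor its quadratic term (adjusted p = 0.0917) passed. Cdh5, VE-cadherin of the vessel wall, read at most 4.86 and did not meet the level, as did the endothelial markers Pecam1, Tie1 and Emcn. Of the 5 endothelial markers that did, 2 rose, against 25.2% of all genes. The median of the 5 was 8.13 at E11 and 8.21 at P0. Cdh18 read at most 2.99.

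Cdh13, T-cadherin, which is tied to the membrane by a lipid anchor and lacks a cytoplasmic tail, rose. It read 4.64, 3.25, 6.38, 7.71, 7.20, 7.45, 8.16, 7.67 and 8.24, with both arrays to E12 under 5 and all from E13 on above 6. The slope was 0.516 ± 0.11 (limma adjusted p = 0.00391), and P0 was at least 9.47-fold above E11. Cdh16, Cdh17, Cdh23 and Cdh26 read at most 3.19 on any array.

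Clustered protocadherins of the beta group moved alike. In order along their cluster, 22 Pcdhb genes follow each other in the RefSeq gene table, and all 22 had a probe set of their own. The 9 that met the level were Pcdhb3, Pcdhb7 and Pcdhb9 and, from the end of the row, Pcdhb16, Pcdhb17, Pcdhb19, Pcdhb20, Pcdhb21 and Pcdhb22. Pcdhb18 in the midst of these last read at most 2.35. Pcdhb genes are close copies of each other, so a probe set may bind the RNA of a neighbour, and levels of single Pcdhb genes are uncertain to that extent. Of the 9, 7 rose and 2, Pcdhb19 and Pcdhb21, did not pass, and all 9 slopes were positive, from 0.141 to 0.496. Over all genes tested, 25.2% rose.

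Pcdhb9 had the steepest slope of the group. It read 3.83, 5.93, 7.18, 7.17, 8.43, 8.15, 8.55, 8.39 and 8.50, lowest at E11 and level from E15 on (0.496 ± 0.095, limma adjusted p = 0.00197, at least 11.3-fold). Its quadratic term passed with a turning point at day 17.1 (adjusted p = 0.0122). Pcdhb20 read 6.74, 6.64, 8.23, 8.40, 9.28, 8.61, 9.0, 8.82 and 9.23 (slope 0.304 ± 0.064, limma adjusted p = 0.00320, 5.60-fold). The first 2 arrays lay more than 1 log2 unit below all others, and between E13 and P0 the trend did not pass (limma adjusted p = 0.105).

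Pcdhb17 read 6.81, 6.10, 7.39, 8.0, 8.88, 8.17, 8.33, 8.03 and 8.36 (slope 0.234 ± 0.069, limma adjusted p = 0.0182). Pcdhb16 read 7.77, 7.67, 8.77, 9.02, 10.37, 9.07, 9.47, 9.07 and 9.67 (slope 0.221 ± 0.071, limma adjusted p = 0.0262). In both genes the E11 and E12 arrays were the lowest and the E15 array the highest. Pcdhb7 read 5.81, 5.94, 7.08, 7.37, 7.95, 7.52, 7.88, 7.35 and 7.51, and both its slope (0.213 ± 0.061, limma adjusted p = 0.0157) and its quadratic term passed (turning point at day 16.5, adjusted p = 0.0277). Pcdhb22 ranged from 6.07 at E12 to 7.69 at E15 (slope 0.156 ± 0.045, limma adjusted p = 0.0165). Pcdhb3 ranged from 5.84 at E12 to 7.42 at E15 (slope 0.141 ± 0.049, limma adjusted p = 0.0373). The rises of Pcdhb3, Pcdhb7, Pcdhb16, Pcdhb17 and Pcdhb22 no longer passed without the E11 array (adjusted p from 0.0617 to 0.170) or between E13 and P0.

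The Pcdhb members that did not pass had the largest excess at E15. Pcdhb21 read 5.09, 5.44, 6.94, 6.27, 8.31, 6.36, 6.74, 7.06 and 7.31 (slope 0.224 ± 0.088, limma adjusted p = 0.0588), with E15 far above its neighbours. It rose without the E15 array (slope 0.224, adjusted p = 0.00790), without E13 (0.0395) and with the mean of its probe sets (0.025). Leaving out E15, the mean day of the fit, changes only the scatter and not the slope. Pcdhb19 read 3.38, 3.56, 4.13, 4.34, 5.91, 4.07, 5.34, 4.05 and 5.19 (slope 0.181 ± 0.085, limma adjusted p = 0.105), and also passed without E15 (adjusted p = 0.0367) or E18 (0.0449). Without E15, 9 of the 10 clustered members rose in place of 7, against 25% of all genes. Without E12 3 rose, against 21.1%. Without E11 2 of the 10 rose, which is near the 20.4% of all genes.

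At E15 the Pcdhb genes stood high together. The E15 array gave the highest reading of 8 of the 9 Pcdhb members, Pcdhb9 being the exception, against 7.36% of all genes tested. In all 9 the E15 reading lay above both E14 and E16, against 31.7% of all genes. The excess over the mean of these neighbours ranged from 0.50 log2 units in Pcdhb22 to 1.99 in Pcdhb21, with a median of 0.78, and the median over all genes was 0.04. Of the 13 Pcdhb genes that did not meet the level 3 were highest at E15, Pcdhb12 (5.31), Pcdhb15 (5.85) and Pcdhb10 (3.30, near the background). The other 10 were highest at other ages and read at most 3.81. This pattern was noticed in the readings, rests on 1 animal, and has no replicate or test. The E15 animal was 1 of the 4 with high Xist. Of the others, E11 or E12 held the lowest reading of all 9 Pcdhb members, against 39.2% of all genes. P0 held the second highest reading of 7 of the 9, which was not counted over all genes. The part of sex in the pattern was not tested.

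**Figure D5:**
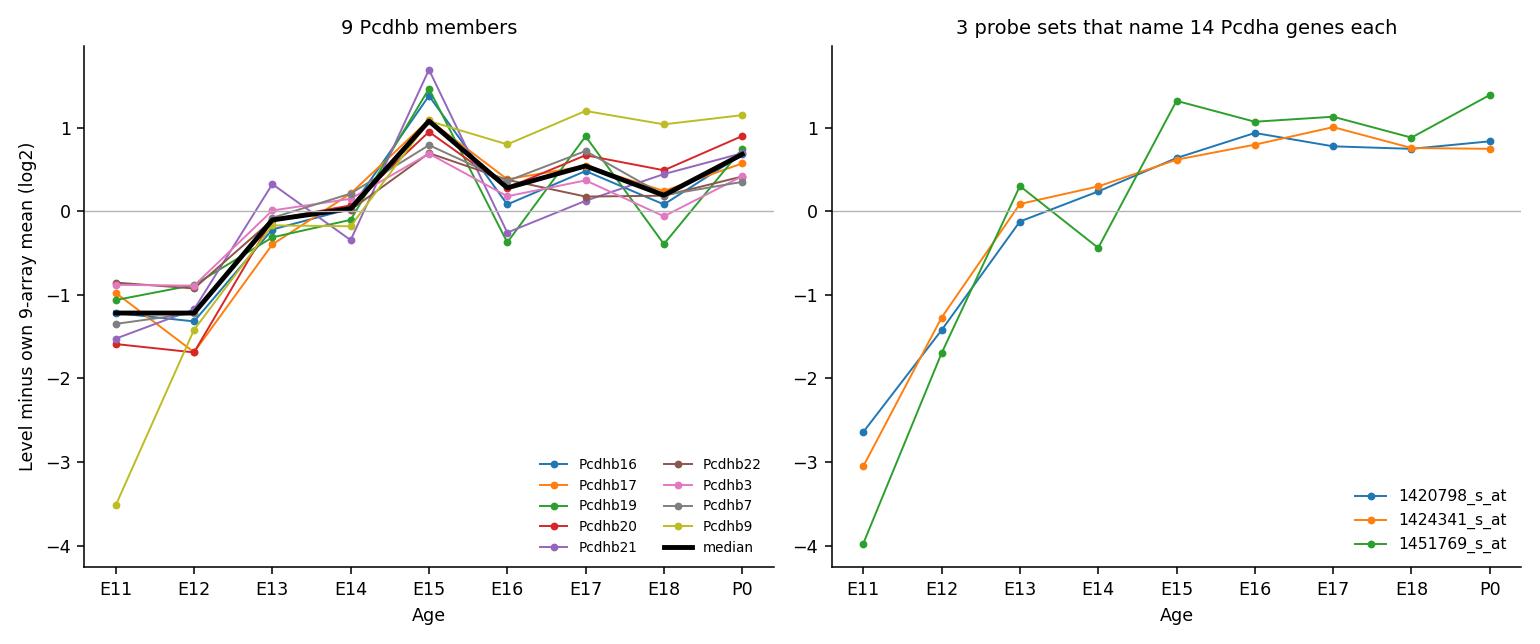
Level minus the gene's own mean over the 9 arrays, in log2 units (vertical axis), by age (horizontal axis). Left: the 9 Pcdhb members and their median (black), low at E11 and E12 and highest at E15. Right: the 3 probe sets that each name 14 Pcdha genes, which climb to E15 or E16 and then stay level.

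Pcdhgc4, the C-type gene of the gamma cluster, which is known for neuron survival, did not follow the beta group. It read 7.08, 6.93, 7.07, 7.23, 7.01, 7.23, 6.71, 6.86 and 6.47, a range of 0.77 log2 units. The slope of -0.056 ± 0.030 did not pass (limma adjusted p = 0.149), nor under any of the 19 alternatives. Its E15 reading was 0.22 log2 units under the mean of E14 and E16.

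Among delta-1 protocadherins, which share a conserved tail motif that binds protein phosphatase, Pcdh11x and Pcdh7 rose steeply. Pcdh11x, an X-linked gene, read 6.96, 7.29, 8.71, 9.24, 9.96, 10.41, 10.34, 10.26 and 10.63, with each of the arrays to E15 below every later one. The slope was 0.467 ± 0.062 (limma adjusted p = 0.000239, 12.8-fold), and it stayed past the threshold with embryo sex in the fit and in the other alternatives run. A second probe set gave a slope of 0.497 ± 0.070. Pcdh7, known from axons and retinal targeting, read 5.75, 6.93, 8.87, 8.86, 9.74, 9.93, 9.81, 9.57 and 9.81. It rose 16.6-fold from E11 to P0 (slope 0.451 ± 0.094, limma adjusted p = 0.00319) and was level from E15 on. Its quadratic term had the lowest adjusted p of the members (0.00707), with the turning point at day 16.9.

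Pcdh9, a delta-1 gene of cortical and bulb neurons, read 9.42, 10.76, 11.41, 10.63, 11.29, 11.22, 10.85, 10.83 and 11.29. The E11 array stood below the rest, and the slope of 0.120 ± 0.060 did not pass (limma adjusted p = 0.122), except without the E13 array (0.0387). The second probe set gave 9.93 (E11), 11.36 (E13) and 10.18 (P0), with a slope of -0.067 ± 0.055, the only case among 19 further probe sets of 14 members in which the sign of the slope differed. Pcdh1, the other delta-1 gene, read at most 3.65.

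Delta-2 protocadherins, whose tails can recruit the actin-regulating WAVE complex, split in direction. Pcdh10, known for axon growth through the ventral forebrain, read 8.53, 8.81, 9.46, 9.57, 9.53, 10.09, 10.32, 10.16 and 10.19. Arrays from E16 on lay above all earlier ones, and the slope of 0.216 ± 0.030 (limma adjusted p = 0.000322, 3.16-fold) stayed past the threshold in all alternatives. Its 3 further probe sets had slopes of 0.164, 0.059 and 0.0080. Pcdh17, known from axon extension and presynaptic sites, read 6.51, 7.78, 9.61, 7.60, 9.25, 9.05, 9.35, 9.50 and 9.81. The E14 array was low between E13 and E15, and the second probe set showed the same (8.30, 7.27 and 8.68). The rise (0.322 ± 0.084, limma adjusted p = 0.00995, 9.85-fold) did not pass without E11 (adjusted p = 0.0690). Nor did it between E13 and P0 (limma adjusted p = 0.281) or by exact rank correlation (adjusted p = 0.0909).

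Pcdh8, also called arcadlin, which is induced by activity and takes part in the uptake of N-cadherin, read 10.31, 11.04, 11.09, 11.24, 11.04, 11.28, 11.34, 11.12 and 11.27. All arrays after E11 lay between 11.04 and 11.34. The slope of 0.077 ± 0.029 was barely past the threshold (limma adjusted p = 0.0495) and did not pass in 12 of 19 alternatives, without E11 among them (adjusted p = 0.318). Pcdh18 read 8.55, 7.69, 7.62, 8.50, 8.67, 8.66, 8.46, 8.37 and 8.34, low at E12 and E13 only, and its slope of 0.051 ± 0.045 did not pass (limma adjusted p = 0.384).

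Pcdh19, an X-linked gene whose loss causes epilepsy in heterozygous females and which partners with N-cadherin, was the delta member that fell. It read 10, 9.86, 10.27, 9.78, 9.99, 9.80, 9.29, 9.41 and 9.02, so that the arrays from E17 on lay below all earlier ones. The slope was -0.12 ± 0.029 (limma adjusted p = 0.00697), and E11 was 1.98-fold above P0. The call stayed with embryo sex in the fit and in the other alternatives run, and 2 further probe sets had slopes of -0.14 ± 0.032 and -0.12 ± 0.069.

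Pcdh20 and Pcdh15 rose outside these classes. Pcdh20 read 3.07, 3.19, 6.66, 7.68, 6.02, 6.95, 7.55, 7.65 and 7.67, under 4 to E12 and above 6 from E13 on, with the E15 array the lowest of the later ones. The slope was 0.548 ± 0.13 (limma adjusted p = 0.00587), P0 was at least 6.38-fold above E11, and from E13 on the trend did not pass (adjusted p = 0.218). With readings under 5 set to 5 the slope was 0.328. Pcdh15, the tip-link protein of hair cells, read 3.5, 2.68, 4.01, 4.05, 3.51, 4.45, 5.34, 4.99 and 5.44, with the 3 arrays from E17 on above all earlier ones (slope 0.295 ± 0.061, limma adjusted p = 0.00303). With the same floor it did not pass (slope 0.040, adjusted p = 0.176). Pcdh12, a vessel protocadherin, read at most 4.84 and did not meet the level.

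The partners of these proteins were read from lists, whose counts stand beside the 25.2% of all genes that rose and the 21.9% that fell. Of 17 catenins and junction partners, 3 rose and 4 fell, and 10 missed the threshold. Ctnnb1, beta-catenin, which links cadherins to the skeleton, read between 14.78 and 14.95 on all arrays (slope -0.0031, limma adjusted p = 0.827). Arvcf (-0.24 ± 0.040), a catenin of the p120 group, Ctnna1 (-0.12 ± 0.024), alpha-catenin, and Lima1 (-0.12 ± 0.024), an actin linker, fell. Vcl, vinculin (0.113 ± 0.035), the adaptor Iqgap1 (0.096 ± 0.033) and Pkp4 (0.079 ± 0.023) rose.

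Of 12 partners of protocadherin tails 5 rose, 1 fell and 6 did not pass. Ptk2b, a focal adhesion kinase bound by clustered protocadherins, read 2.86 at E11 and 7.03 at P0 (slope 0.520 ± 0.093). Wasf1 (0.172 ± 0.024) and Abi1 (0.140 ± 0.026), parts of the WAVE complex, rose, and the kinase Taok2 fell (-0.15 ± 0.053). Of 7 proteases that cut cadherins 2 rose and 2 fell, Psen2 (0.274 ± 0.054) and Pcsk5 (0.195 ± 0.050) being the ones that rose and Ncstn (-0.099 ± 0.034) and Psenen (-0.062 ± 0.022), partners in gamma-secretase, those that fell.

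Among 13 genes that regulate the promoters of clustered protocadherins 8 fell and 1 rose, and 4 missed the threshold, where 21.9% of all genes fell. On the same arrays 7 of 7 progenitor markers fell, among them Mki67 (-0.32) and Top2a (-0.35) of dividing cells, and their part in these courses was not tested. Dnmt3b, a DNA methyltransferase that acts on these promoters, read 8.62 at E11 and 5.98 at P0 (slope -0.29 ± 0.047). Rest, a repressor of neuronal genes, had a slope of -0.17 ± 0.029, and Smc3, a cohesin subunit, -0.12 ± 0.025. Ctcf, the looping factor, had a slope of -0.11 ± 0.021. Dnmt3a rose (0.125 ± 0.025).

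Of 11 other members of the cadherin superfamily 3 rose, 2 fell and 6 did not pass. Cdhr1, a cadherin of mitral and tufted cells, read 6.39 at E11, 8.65 at E12, 11.62 at E13 and 13.86 at P0 (0.867 ± 0.15). Clstn2, a calsyntenin of synapses (0.480 ± 0.10), and the receptor kinase Ret (0.314 ± 0.052) rose as well. Celsr1 (-0.22 ± 0.065) and Celsr2 (-0.10 ± 0.035), atypical cadherins of planar cell polarity, fell.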

How the data were processed

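RNA of the olfactory bulb of 9 mice, 1 per age from E11 to P0, was hybridised to 1 Affymetrix array each, per the labels. The authors deposited log2 levels per probe set made with GCRMA, per the submitters' processing notes. GCRMA models background from probe sequence and normalises the arrays together, and its version is not given in the sources used here. That the scale is log2 was read from the method and the size of the values. Precision is limited by the number of arrays.

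Of 45101 probe sets, 34945 had 1 gene symbol, and 34741 of these were matched by Entrez ID to RefSeq symbols, of which 0 changed. Genes at log2 5 or more on at least 2 arrays (10864) were fitted against age (P0 at day 19) with limma 3.58.1 in R 4.3.3 (variance trend on the mean, two-sided, 7 residual degrees of freedom), with Benjamini-Hochberg adjustment over all of them. Folds set readings under 5 to 5 and are then lower bounds. The animals of different ages are the only replication, and p-values measure the scatter of single animals around a line. The procedure was tested on simulated data.

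Every member was named; all 9 readings were given for delta members, for Cdh2, Cdh4, Cdh11 and, where they met the level, Cdh1 and Cdh5, for members with a called peak, and for the up to 4 steepest called members in each direction per class. All readings of Cdh8, Pcdhb19, Pcdhb21 and Pcdhgc4, and of members that did not meet the level, were added after values were seen. From pathway lists the up to 3 steepest genes per direction were named, with Ctnnb1, Ctcf, Epcam and others added after values were seen. Members and lists were chosen with earlier results of these data known.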

Additional observations from a re-analysis of the deposited data

Results flagged for a closer look

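Probe sets whose annotation names several protocadherin genes were kept out of the comparisons. On the array 6 such probe sets name several Pcdha genes, and 4 of them read 5 or more on at least 2 arrays, which is a signal outside the comparisons above. The 3 that name 14 Pcdha genes each had highest readings of 11.12, 9.19 and 9.34. The first of these read 7.54 at E11, 10.06 at E13, 10.82 at E15 and 11.02 at P0. The second read 5.13, 8.27, 8.80 and 8.93 at these ages, and the third 3.97, 8.25, 9.27 and 9.34. All 3 were lowest at E11 and stayed within narrow bounds from E15 on. Their E15 readings exceeded the mean of E14 and E16 by 0.05, 0.07 and 1.0 log2 units. A further probe set, which names 9 Pcdha genes, had its highest reading of 5.39 at E15. Each age had 1 array, and outlying arrays within an age were not searched for.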

How the results depend on the processing

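In all, 19 alternatives were run, all planned. Of the 22 members with a call, 0 reversed in any of them and 9 kept the call in all: Cdh4, Cdh6, Cdh13, Cdh19, Cdh22, Pcdh10, Pcdh11x, Pcdh19 and Pcdhb9. The 2 members that fell did so in all 19. Leaving out each array in turn gave 12 to 22 members that rose (lowest without E11), 4 to 5 classical, 2 to 9 clustered (lowest without E11, highest without E15) and 3 to 6 delta members that rose, and 3 to 6 with a peak (lowest without E15). Of all genes, 20.4% rose without E11 and 25% without E15. Linear slopes without E15, the mean day, are the same as in the main fit. Between E13 and P0, 8 members rose (3 classical, 1 clustered and 2 delta) and 0 had a peak. Of all genes 1525 (14.0%) rose and 1219 (11.2%) fell there. By exact rank correlation 12 members rose, 3 of them clustered and 3 delta, against 19% of all genes. With the mean of a gene's probe sets 4 members fell, 3 of them classical, against 23%. Without a filter all 56 symbols of the family were fitted, and 14.7% of all genes rose. There 8 of 16 classical genes rose and 3 genes of the 56 had a peak. With embryo sex in the fit 2 members had one. Peaks over all genes were not counted in these settings, and the cause of these shifts was not tested. Slopes that changed sign belonged to members that did not pass: Cdh7 (-0.059 to 0.073 over the single arrays left out, above 0 without E13, E18 or P0), Cdh8 (-0.0021 to 0.102 likewise, below 0 without E11, and -0.12 between E13 and P0) and Pcdh9 (-0.014 between E13 and P0). Quantile normalization would move an array's median by at most 0.0877. No paired analysis was possible because each age had 1 array. Readings under 5 lie near the background and limit what can be said of the 8 members with such readings: Cdh9, Cdh13, Cdh19, Cdh22, Pcdh15, Pcdh20, Pcdhb9 and Pcdhb19.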
